A study of Caenorhabditis elegans with 51 samples.

Results

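Innexins are the proteins that build gap junctions in invertebrates, and the transcripts of 10 innexin genes of Caenorhabditis elegans are described here: inx-2, inx-3, inx-8, inx-10, inx-11, inx-12, inx-13, inx-14, inx-15 and inx-22. The members were found by their gene names among the 31383 genes of each library, and each name matched 1 gene. The same files hold 15 other innexins, so that 25 innexins were measured in all. Innexin subunits assemble into a channel in each of a pair of touching cells, and the docked channels pass ions and small molecules from one cell to the other. Different cells use different innexins. Many tissues of the worm, including epidermis, intestine, germ line and neurons, are coupled through such channels.

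The libraries came from embryos of about 100 cells, dissected by hand while internalizing cells move into the interior. In 7 embryos carrying pCEH-51::mNG, the MS descendants (MS+) were separated from the rest of the embryo (MS-), and in 7 embryos carrying pFKH-2::mNG the D descendants (D+) were separated from the rest (D-). In 5 embryos carrying both pR02D3.1::mKate2 and pHLH-1::mNG, the internalizing Cxp cells (C-in), the Cxa cells that stay outside (C-out) and the remaining cells (C-) were taken apart. All worms were kept at 20°C, and no agent or mutation was compared. Cells were recognised by the promoter-driven reporter alone, each library held cells of 1 embryo, and the 3 rest groups partly overlap, since MS- for example also holds D and C cells. The study sought transcripts that rose over time in internalizing cells (here MS+, D+, C-in) and were higher in Cxp than in Cxa cells. The comparisons below are between groups of the same stage, and only C-in over C-out matches a step of that search. MS-, D- and C- also hold other internalizing cells. The 43 accepted libraries of 19 embryos enter every comparison. A further 8 libraries of 3 embryos (D embryo 5, C embryos 3 and 7), which the study set aside because a library exceeded 10% of spike-in transcripts, enter only where named. Embryo numbers below count within each of the 3 dissection series.

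Total counts per library ran from 416394 to 3054633, with a median of 1853024. Levels are given in RPKM (reads scaled by gene length and by library depth), in which a gene between 1235 and 1866 bases long, as the members are, needs between 0.484 and 5.42 RPKM to reach 3 counts. A gene is called detected over 25 RPKM, the study's own limit. Some libraries stood apart, and 1 went against its label. D+ embryo 8 held 2.35 RPKM of fkh-2 and 7.11 RPKM of hlh-1, against 93.9 to 1749 and 130 to 1504 RPKM in the other 6 D+ libraries, and it held 2061 RPKM of R02D3.1. Its summed epidermis markers (elt-1, lin-26, elt-3, nhr-25) reached 1225 RPKM, against 3.58 to 262 RPKM in the other 6, so the D+ levels, edgeR results and exact tests of the members are also given without it. Other D libraries also departed from their group. D+ embryo 4 had a germ line marker sum of 1020.55 RPKM, against at most 3.71 RPKM in the other 6, and an epidermis sum of 261.77 RPKM. D+ embryo 3 had a neural marker sum of 805.69 RPKM, against 2.69 to 33.29 RPKM in the other 6. D- embryo 8 had the lowest D- sums of intestine (30.7 RPKM), neural (10.98), MS and pharynx (4.72) and muscle markers (61.27). MS+ embryo 2 held 8.44 RPKM of ceh-51, against 130 to 2445 RPKM in the other 6 MS+ libraries. The intestine markers (elt-2, elt-7, end-1, end-3) summed to 2707 and 2964 RPKM in MS+ embryos 3 and 4, against 6.43 to 73.6 RPKM in the other 5. C-out embryo 1 held 73.9 RPKM of R02D3.1, against 1020 to 3861 RPKM in the other 4 C-out libraries, and marker sums of 702 (intestine), 456 (MS and pharynx) and 101 RPKM (germ line). In mixed cells of this kind, fewer cells of a type and less RNA per cell cannot be told apart.

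The members fell into 3 sets by level. inx-2 and inx-3 were over 25 RPKM in all 43 libraries, as were 168 of the 31383 genes (0.535%). By the mean of the 7 group means they ranked 94 and 80 among all genes, at 650 and 723 RPKM. inx-12 and inx-13, known for the epidermis and the excretory canal cell, were over 25 RPKM in 13 and 12 libraries. inx-11, inx-15 and inx-22 were over 25 RPKM in 3 libraries each and inx-14 in 1. inx-8 and inx-10 were never over 25 RPKM, with 3 and 8 counts in all over the 43 libraries. Thus 8 of the 10 members, and 6 of the 15 other innexins, were detected in at least 1 library, as were 10959 of the 31383 genes.

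**Figure D1:**
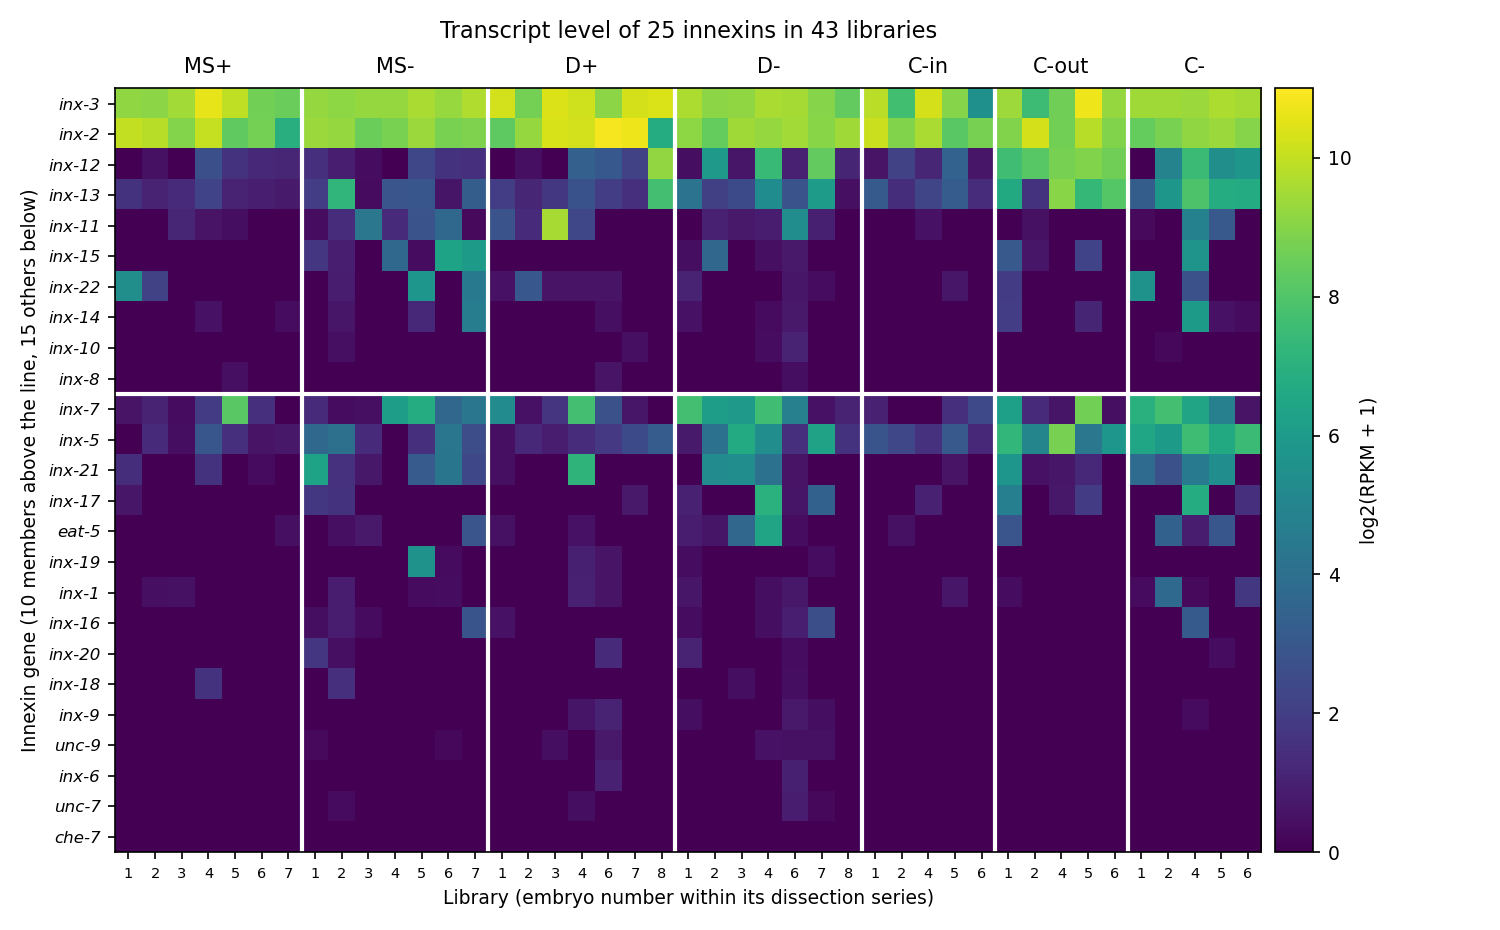
The heat map gives log2(RPKM + 1) of the 25 innexins (rows, the 10 members above the horizontal line) in each of the 43 libraries (columns, by cell group and embryo number). inx-2 and inx-3 are bright across every column, and inx-12 is bright in the 5 C-out libraries, in D+ embryo 8 and in some libraries of D- and C-.

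inx-3 and inx-2 were the innexins detected in every library of every cell group, and C-out and C- held others as well. inx-3 is known to be widespread in the early embryo and to be needed for normal morphogenesis. Its level was 730 ± 415 RPKM in MS+ (SD, n = 7), 660 ± 96.7 in MS- (n = 7), 1048 ± 395 in D+ (n = 7) and 609 ± 168 in D- (n = 7). The C series had inx-3 at 588 ± 503 RPKM (C-in), 709 ± 576 (C-out) and 715 ± 55.6 (C-, n = 5 each). In order of mean level, D+ came first, then MS+, C-, C-out, MS-, D- and C-in, and the ranges of every neighbouring pair of groups overlapped.

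inx-2 stood at 614 ± 365 RPKM in MS+, 519 ± 114 in MS-, 1007 ± 674 in D+ and 588 ± 131 in the D- libraries (SD, n = 7 each). The C series had inx-2 at 616 ± 324 RPKM (C-in), 706 ± 372 (C-out) and 503 ± 124 (C-, n = 5 each). From the highest mean to the lowest the order was D+, C-out, C-in, MS+, D-, MS-, C-, again with overlapping ranges between all neighbours. Without D+ embryo 8 the D+ means were 1156 ± 599 RPKM for inx-2 and 999.9 ± 410 for inx-3 (n = 6), and both orders still began with D+.

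**Figure D2:**
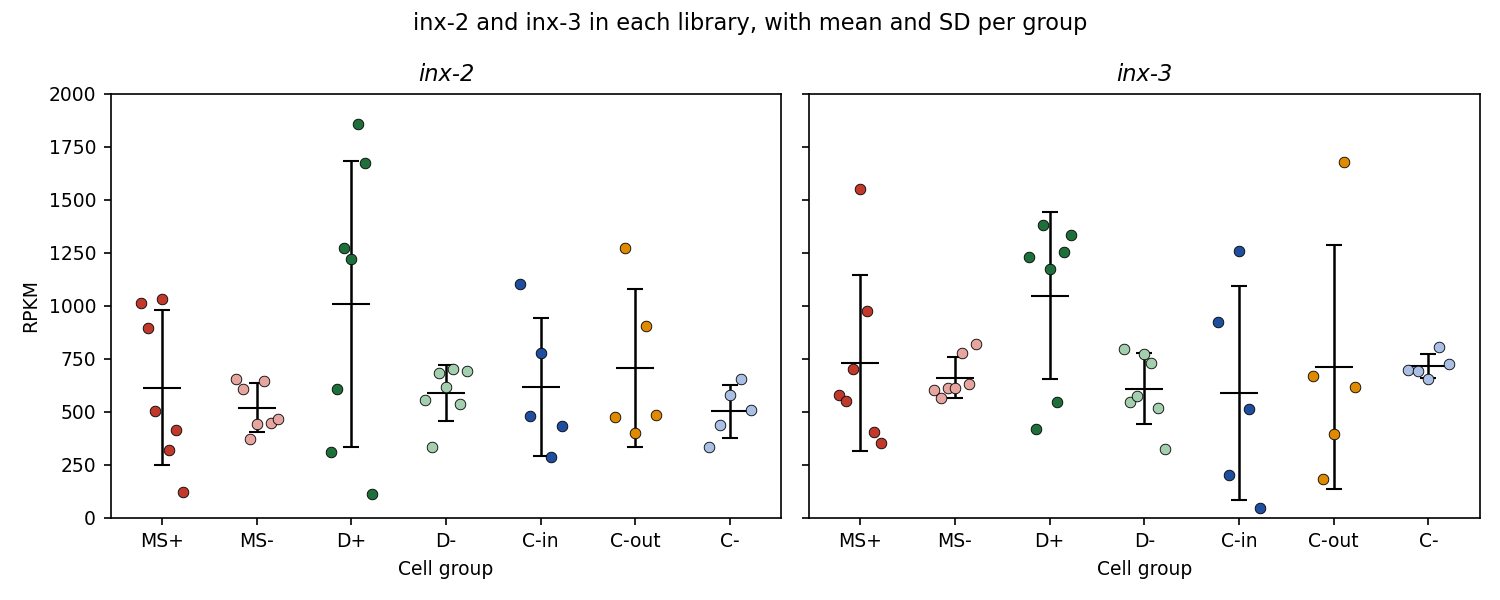
RPKM of inx-2 (left) and inx-3 (right) in each library, by cell group; points are libraries, the horizontal bar is the mean and the whisker 1 SD (n = 7 in the MS and D groups, n = 5 in the C groups). The dissected groups (MS+, D+, C-in, C-out) spread more widely than the rests of the embryo (MS-, D-, C-), and no group stands apart.

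The spread differed more than the level. The coefficient of variation of inx-3 was 56.9% in MS+, 37.7% in D+, 85.5% in C-in and 81.2% in C-out, and 14.6%, 27.7% and 7.77% in MS-, D- and C-. For inx-2 it was 52.6% to 67.0% in the 4 dissected groups and at most 24.7% in the 3 rests. Without embryo 8 the D+ values were 51.8% for inx-2 and 41.0% for inx-3. The dissected groups hold fewer cells and mostly fewer counts, with median totals of 1204474 to 1740918 counts against 2148961 to 2505313, and the part of this in the spread was not tested.

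Within a library the pair did not hold a fixed ratio. inx-2 over inx-3 ran from 0.0827 in D+ embryo 8 to 9.73 in C-in embryo 6, with a median of 0.812, and was above 1 in 17 of the 43 libraries. D+ embryo 8 held 110 RPKM of inx-2 and 1335 RPKM of inx-3. C-in embryo 6 held 434 RPKM of inx-2 and 44.6 RPKM of inx-3, the lowest inx-3 level of the 43. Over the 43 libraries Pearson's r between their log2(RPKM + 25) values was 0.157.

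Neither gene was called in any of the 5 comparisons by the quasi-likelihood test of edgeR, with p-values adjusted over all genes of the fit by the Benjamini-Hochberg method. Not being called does not show that the levels were equal. To enter a fit, a gene had to pass 25 RPKM in a number of libraries no lower than the size of the smaller group. Between MS+ and MS-, the log2 fold change was 0.65 (SE 0.46, adjusted p = 0.769) for inx-2 and 0.66 (SE 0.44, adjusted p = 0.746) for inx-3. They were the 2 members tested, and the fit called 13 of 3730 genes (0.349%). Each embryo set its own direction: inx-2 was higher in MS+ in 4 of 7 embryos and inx-3 in 3 of 7.

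Between D+ and D-, inx-2 in D+ was 309, 609, 1273, 1220, 1854, 1674 and 110 RPKM in embryos 1, 2, 3, 4, 6, 7 and 8. In D- of the same embryos it was 557, 333, 682, 615, 702, 535 and 694 RPKM. It was higher in D+ in 5 of 7 embryos, and embryos 1 and 8 went the other way. inx-3 in D+ was 1231, 417, 1381, 1171, 545, 1254 and 1335 RPKM, and in D- it was 797, 546, 574, 773, 729, 517 and 326 RPKM. It too was higher in 5 of 7 embryos, with embryos 2 and 6 the exceptions, and both pairs of groups overlapped.

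The log2 fold changes in D+ were 1.26 (SE 0.56, adjusted p = 0.680) for inx-2 and 1.39 (SE 0.50, adjusted p = 0.516) for inx-3 by the quasi-likelihood test of edgeR (Benjamini-Hochberg). The 2 were again the members tested, and 6 of 3039 genes (0.197%) were called. The median log2 fold change of all tested genes was 0.53, so that the members lay 0.73 and 0.86 above it. Without embryo 8 the values were 1.41 (adjusted p = 0.127) and 1.02 (adjusted p = 0.398). DESeq2 put both genes past the threshold, at 2.10 (adjusted p = 0.0266) and 2.45 (adjusted p = 0.00502), in a fit whose median over all genes was 1.23 and which called 13.6% of the genes higher in D+. The difference between the MS contrast and the D contrast was -0.59 (SE 0.70, adjusted p = 0.830) for inx-2 and -0.74 (SE 0.62, adjusted p = 0.688) for inx-3 in edgeR's quasi-likelihood test, which called 1.06% of 5304 genes. Without D embryo 8 they were -0.94 (adjusted p = 0.539) and -0.50 (adjusted p = 0.809). DESeq2 was not run without embryo 8.

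In the C series, where C-in and C-out are each set against the same 5 C- libraries, the values stand side by side. Over all genes these 3 fits called 5.66% (C-in over C-out), 6.35% (C-in over C-) and 0.0% (C-out over C-). For inx-2, the log2 fold change was -0.30 (SE 0.67, adjusted p = 0.921) for C-in over C-out, 0.97 (SE 0.50, adjusted p = 0.333) for C-in over C- and 0.91 (SE 0.54, adjusted p = 0.622) for C-out over C-, by edgeR's quasi-likelihood test. For inx-3 the same 3 values were -0.18 (SE 0.82, adjusted p = 0.958), 0.37 (SE 0.68, adjusted p = 0.811) and 0.14 (SE 0.53, adjusted p = 0.947). DESeq2 called inx-2 higher in C-out than in C- (2.75, adjusted p = 0.0202) in a fit that called 11.2% of genes. The sign of the inx-3 change turned with no scaling beyond the column totals in both comparisons with C-, and on leaving out single embryos in all 3. Without embryo 1, C-in over C-out was -0.74 (adjusted p = 0.749) for inx-2 and -0.43 (adjusted p = 0.943) for inx-3, and C-out over C- was 0.88 (adjusted p = 0.489) and 0.097 (adjusted p = 0.974).

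**Figure D3:**
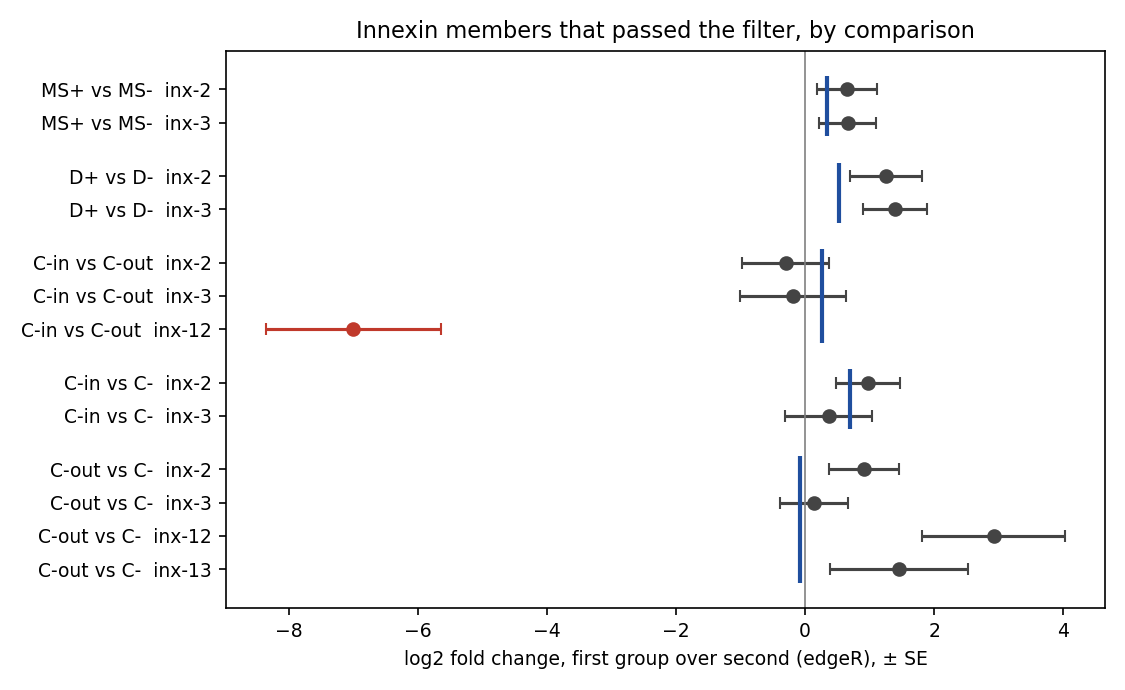
Log2 fold change ± SE from edgeR of each member that passed the filter, first group over second, in the 5 comparisons; the blue bars mark the median of all genes tested in that comparison, and the red point is the member called. inx-12 stands at -7.0 for C-in over C-out, and the other points lie between -0.30 and 2.92.

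inx-12 was high in every C-out library and low in every C-in library. It was 194, 286, 430, 488 and 390 RPKM in C-out of embryos 1, 2, 4, 5 and 6, and 0.51, 3.45, 1.28, 9.92 and 0.60 RPKM in C-in of the same embryos. The lowest C-out value was far above the highest C-in value, and C-out was higher in 5 of 5 embryos. The log2 fold change for C-in over C-out was -7.0 (SE 1.35, adjusted p = 0.00260) by the quasi-likelihood test of edgeR (Benjamini-Hochberg), and -7.25 relative to the median of all genes. It was the 1 member called of 3 tested, where 5.66% of the 2208 genes were called, 4.71% with C-in lower, and 5.03% were lower without overlap. inx-12 passed the filter through C-out alone, so it could enter this fit only as a gene high in C-out, and the p is given as a description beside the values of the 10 libraries.

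Without embryo 1 the value was -6.86 (adjusted p = 0.00703). Over 14 alternatives the adjusted p of inx-12 ran from 2.16e-11 to 0.147, and it was past the threshold in 13. The exception was the fit that added embryos 3 and 7, at -3.10 (adjusted p = 0.147). In those set-aside embryos C-in held 205 and 57.7 RPKM of inx-12, from 29 and 15 counts, and C-out held 34.9 and 9.57 RPKM, so that the direction was opposite to that of the 5 accepted embryos.

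The C- libraries held 0, 29.1, 181, 41.9 and 54.8 RPKM of inx-12 in embryos 1, 2, 4, 5 and 6. All 5 were below all 5 C-out libraries, a separation shown by 0.392% of 4079 genes. The log2 fold change for C-out over C- was 2.92 (SE 1.10, adjusted p = 0.506) by edgeR's quasi-likelihood test, which called 0 of 4079 genes (0.0%) and had 354 at an unadjusted p under 0.05. Without embryo 1 it was 2.71 (adjusted p = 0.0853) in a fit that called 208 genes. DESeq2 called 456 genes (11.2%) there, inx-12 among them (4.27, adjusted p = 0.00343), and limma on log2(RPKM + 25) called 28, without inx-12. C-in was lower than C- in 4 of 5 embryos, by 1.29 on the log2(RPKM + 25) scale (p = 0.0476, two-sided exact permutation test, n = 5 and 5), and the groups overlapped. With the libraries paired by embryo that p was 0.125, and it was 0.143 without embryo 2, 4, 5 or 6.

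**Figure D4:**
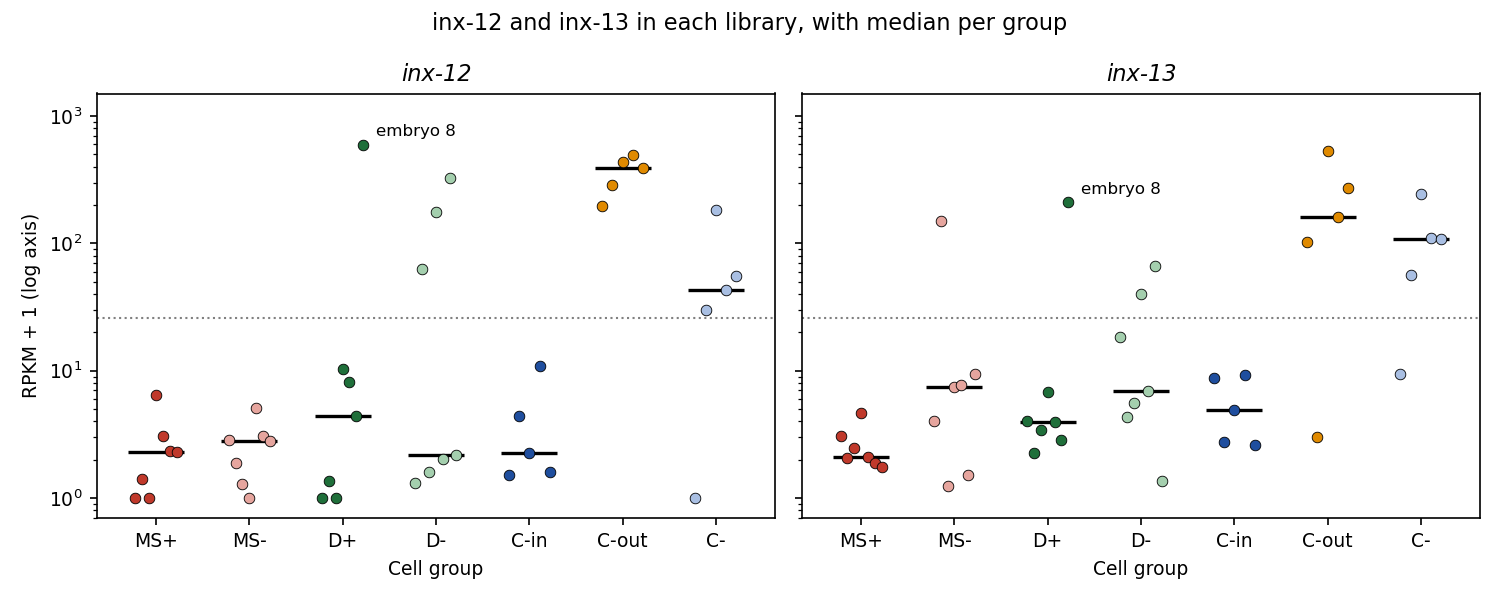
RPKM + 1 on a log axis of inx-12 (left) and inx-13 (right) in each library by cell group; points are libraries, black bars are group medians and the dotted line marks 25 RPKM. The 5 C-out libraries lie between 194 and 488 RPKM of inx-12 while the 5 C-in libraries stay at or under 9.92, and D+ embryo 8 stands far above the other 6 D+ libraries for both genes.

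Outside the C series inx-12 was low in every MS library, and in the D series it was high in some embryos and near 0 in others. It did not pass 5.46 RPKM in MS+ or 4.11 RPKM in MS-. The MS- libraries also hold C cells, and why they were so far below C-out was not tested. In D- inx-12 was 0.32, 61.3, 0.61, 175, 1.01, 323 and 1.18 RPKM in embryos 1, 2, 3, 4, 6, 7 and 8, with no value between 1.18 and 61.3. In D+ it was 0 to 9.35 RPKM in 6 libraries and 594 RPKM in embryo 8. D+ differed from D- by -0.44 on the log2(RPKM + 25) scale (p = 0.657, two-sided exact permutation test, n = 7 and 7), and by -1.28 without embryo 8 (p = 0.143, exact, n = 6 and 6).

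By median, epidermis and neural marker sums were higher in C-out and muscle marker sums were higher in C-in. The ranges of C-in and C-out overlapped for the epidermis and neural sums, and not for the muscle sums. The neural markers (cnd-1, ngn-1, hlh-14, unc-86) summed to 880, 3034, 14.4, 22.7 and 1120 RPKM in C-out of embryos 1, 2, 4, 5 and 6 and to 9.73 to 27.8 RPKM in C-in. The body wall muscle markers (hlh-1, unc-120, hnd-1) went the other way, with 11.3 to 351 RPKM in C-out and 1258 to 4743 RPKM in C-in. inx-12 was high in C-out embryos 4 and 5, where the neural sum was low. The sum of the epidermis markers was 520 to 1498 RPKM in C-out, where all 4 markers had a mean over 25 RPKM, and 277 to 579 RPKM in C-. In C-in it was 9.33 to 38.8 RPKM in 4 libraries and 956 RPKM in embryo 4. That last library held 641 RPKM of lin-26 and 312 RPKM of nhr-25, yet 2.13 RPKM of elt-3, no count of elt-1 and 1.28 RPKM of inx-12. The markers and inx-12 also parted in MS-, where the sum was 207 to 682 RPKM with inx-12 at or under 4.11 RPKM. Of the 13 libraries with inx-12 over 25 RPKM, lin-26 was over 25 in 12, nhr-25 in 11, elt-3 in 7 and elt-1 in 7. lin-26 was over 25 RPKM in a further 13 libraries without inx-12. The part of these cell types in the inx-12 difference was not tested.

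**Figure D5:**
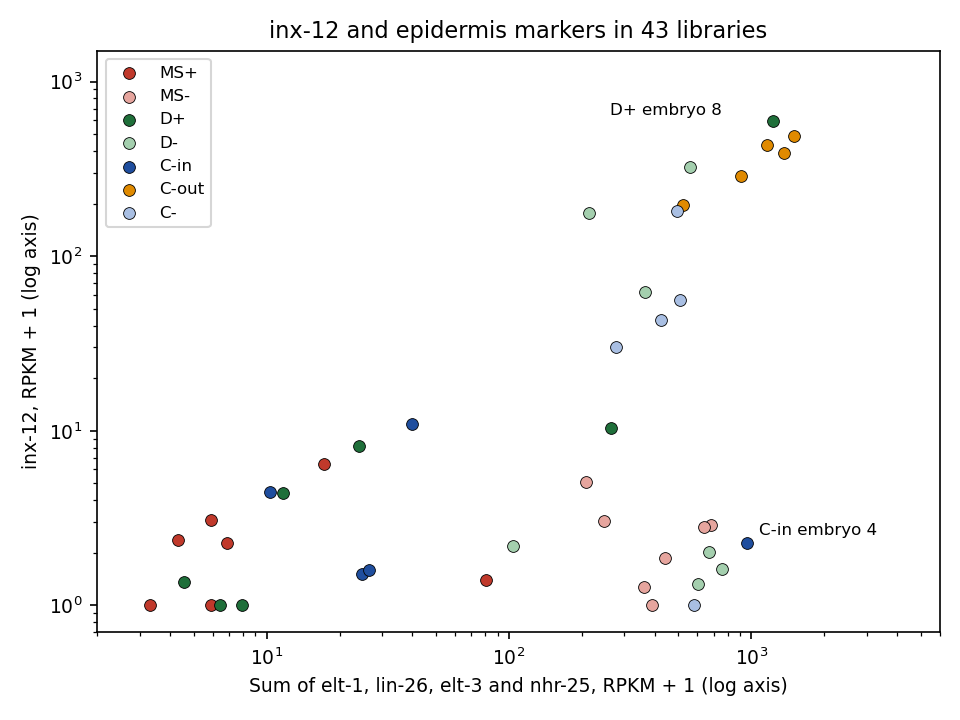
inx-12 against the sum of 4 epidermis markers in the 43 libraries, both as RPKM + 1 on log axes and coloured by cell group. C-out libraries and D+ embryo 8 lie at the upper right, while the MS- libraries, some D- libraries and C-in embryo 4 have marker sums over 200 RPKM with inx-12 under 5 RPKM.

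inx-13 lies next to inx-12 on chromosome I, on the same strand and 1529 bases away in the WBcel235 annotation. Loss of either gene is known to be lethal in young larvae. It was 101, 2.03, 525, 160 and 270 RPKM in C-out of embryos 1, 2, 4, 5 and 6. In C-in of the same embryos it was 7.72, 1.74, 3.95, 8.21 and 1.6 RPKM, and in C- it was 8.43, 55.7, 245, 110 and 107 RPKM. C-out was high in 4 of 5 embryos, and in embryo 2, where inx-12 was 286 RPKM, inx-13 was within the C-in range. All 5 C- libraries lay above all 5 C-in libraries, with 8.43 and 8.21 RPKM as the nearest values. Of the 3572 genes tested there 9.04% were lower in C-in without overlap, 4.79% were called lower, and 6.35% were called in either direction.

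inx-13 was below the filter in those comparisons and was tested singly. C-in was lower than C-out by 2.43 on the log2(RPKM + 25) scale (p = 0.0317, two-sided exact permutation test, n = 5 and 5), in 5 of 5 embryos. That p was 0.0857 without embryo 1, 4 or 5, 0.114 without embryo 6 and 0.0286 without embryo 2. C-in was lower than C- by 1.83 (p = 0.00794, exact, the smallest value that 5 against 5 allows), in 5 of 5 embryos. Paired by embryo, both p-values were 0.0625, the smallest that 5 pairs allow. In edgeR's quasi-likelihood test inx-13 was called, with C-in below C-out, by the fit on all 3 C groups (-5.60, adjusted p = 0.0126, 10.3% of genes called lower), without embryo 2 (-5.78, adjusted p = 0.0208, 6.64%) and with the set-aside embryos (-4.12, adjusted p = 0.0415, 4.09%). In the first of these fits and the fit without embryo 2, no C-in library passed 25 RPKM of inx-13. There it could enter only as a gene high in other groups, so those p-values are descriptions. With no filter inx-13 was not called (-5.47, adjusted p = 0.0800). C-out over C- gave 1.45 (SE 1.07, adjusted p = 0.651).

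In the MS and D series inx-13 was low but for single libraries. In MS+ it was 0.76 to 3.63 RPKM with a median of 1.11, and in MS- 0.25 to 150 RPKM with a median of 6.41. MS+ was lower by 0.50 (p = 0.0449, two-sided exact permutation test, n = 7 and 7), in 5 of 7 embryos, and by 0.13 without embryo 2, whose MS- library held the 150 RPKM (p = 0.126, exact). Paired by embryo the p was 0.0938. On the same scale the median difference of the genes that passed the filter was -0.48, close to that of inx-13. In D+ it was 1.26 to 5.85 RPKM in 6 libraries and 209 RPKM in embryo 8, and in D- it was 0.35 to 65.5 RPKM with a median of 5.97. The D+ difference from D- was -0.08 (p = 0.876, exact), and -0.63 without embryo 8 (p = 0.0130, exact, n = 6 and 6). The same 11 libraries held both inx-12 and inx-13 over 25 RPKM, 2 held inx-12 alone, 1 held inx-13 alone and 29 held neither.

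inx-15 had no count in any of the 19 libraries of the internalizing groups. Over the 28515643 counts of those libraries, 3 counts would have been 0.0789 RPKM. In MS- it was 2.33, 0.90, 0, 11.8, 0.28, 83.0 and 61.9 RPKM in embryos 1 to 7. It was thus over 25 RPKM in 2 of 7 MS- libraries and above 0 in 6. MS+ was lower by 0.67 on the log2(RPKM + 25) scale (p = 0.00466, two-sided exact permutation test, n = 7 and 7), and in 6 of 7 embryos. The median difference of the genes that passed the filter was -0.48 on that scale. inx-15 was admitted to the test by its 2 high MS- libraries, and MS+ was at 0 throughout, so the p describes these libraries. Paired by embryo the p was 0.0313, and over leaving out each embryo it was 0.00216 to 0.0152. With no filter on low values edgeR's quasi-likelihood test called it lower in MS+ (adjusted p = 0.0339), where 0.959% of 20435 genes were called lower.

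Elsewhere inx-15 was at 0 to 11.5 RPKM in D-, 0 to 7.36 in C-out and 0 in 4 of 5 C- libraries, with 51.2 RPKM in C- embryo 4. The difference from C- on the log2(RPKM + 25) scale was -0.32 for C-in and -0.20 for C-out (p = 1.0 each, exact permutation test, n = 5 and 5), with C- embryo 4 as the one library over 25 RPKM. The intestine markers summed to 237 to 1780 RPKM in MS- and to 2707 and 2964 RPKM in MS+ embryos 3 and 4, the latter with no count of inx-15. inx-16, a gene known for calcium waves in the intestine, lies 921 bases from inx-15 on the opposite strand.

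The highest level of inx-11 was that of 1 library. It was 759 RPKM in D+ embryo 3, which is 98.5% of the D+ sum, from 1888 counts. The other 6 D+ libraries held 0 to 6.14 RPKM, and D- held 0 to 41.6 RPKM with a median of 0.78. D+ embryo 3 also held a neural marker sum of 806 RPKM, against 2.69 to 33.3 RPKM in the other 6. A link to inx-11 was not tested. The difference of D+ from D- was 0.57 (p = 0.552, two-sided exact permutation test of log2(RPKM + 25), n = 7 and 7), and -0.16 without embryo 3 (p = 0.825, exact). Without embryo 8 it was 0.66 (p = 0.541, exact). inx-11 overlaps mrps-11 on the opposite strand in the annotation, and whether the counting used strand is not given in the sources used here, so reads of the pair cannot be told apart. inx-3 likewise overlaps F22F4.9, inx-10 overlaps asp-2 and inx-14 overlaps kbrl-1, each on the opposite strand.

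inx-14 and inx-22 are known for signalling between the gonadal sheath and oocytes. inx-22 was 41.9 RPKM in MS+ embryo 1, 54.2 RPKM in MS- embryo 5 and 48.7 RPKM in C- embryo 1, and 21.0 RPKM or less in the other 40 libraries. MS+ differed from MS- by -0.14 (p = 0.657, two-sided exact permutation test of log2(RPKM + 25), n = 7 and 7). inx-14 reached 62.0 RPKM in C- embryo 4 and 23.6 RPKM in MS- embryo 7, and 29 libraries had no count. inx-14 and inx-22 gave exact p-values of 0.167 and 0.444 for C-in against C-, and 0.802 and 0.444 for C-out against C-. inx-8 is known to act in the somatic gonad together with its tandem neighbour inx-9, 718 bases away, and reads of so similar a pair may be split uncertainly. inx-8 had counts in 3 libraries and inx-10 in 5, never above 0.51 and 1.10 RPKM.

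In all, 17 exact tests were run on members under the filter and 5 were below 0.05 before any adjustment. They were inx-13 in 3 comparisons, inx-12 in C-in against C- and inx-15 in MS+ against MS-. In these 5 the libraries over 25 RPKM that admitted the gene all belonged to the other group, so the direction was set by the selection and is not a result. No share over all genes was computed for these tests. Genes that passed the filter had a median log2(RPKM + 25) difference of -0.48 for MS+ over MS- and -0.52 for D+ over D-. In the C series that median was 0.053 for C-in over C-out, -0.59 for C-in over C- and -0.58 for C-out over C-.

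The share of the pair inx-2 and inx-3 in the summed RPKM of the 25 innexins followed these differences. It was 96.5% to 99.6% in C-in, 36.4% to 81.9% in C-out and 55.5% to 81.3% in C-. It was 81.3% to 99.7% in MS+, 85.5% to 97.7% in MS-, 64.1% to 99.6% in D+ and 67.1% to 99.5% in D-. The lowest D+ value was that of embryo 8. In C-in no innexin other than inx-2 and inx-3 was over 25 RPKM in any of the 5 libraries. The number of innexins detected was 4 to 8 in C-out and 5 to 10 in C-. How many of all genes were detected in each of these libraries was not counted, so these numbers are not read as particular to innexins.

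Among the 15 other innexins, inx-5 and inx-7 had the highest means. inx-5 was not over 25 RPKM in any of the 19 libraries of the internalizing groups and was over it in 12 of the 24 others. It ranged from 1.37 to 7.49 RPKM (C-in), from 19.8 to 426 (C-out) and from 62.8 to 193 (C-), and C-in overlapped with neither. Of the genes that passed the filter, 5.03% of 2208 were lower in C-in than in C-out without overlap, and 9.04% of 3572 were lower than in C-. inx-5 was below the filter for C-in against C-out and is not among the 2208. edgeR's quasi-likelihood test called inx-5 lower in C-in than in C- (log2 fold change -4.19, SE 1.08, adjusted p = 0.0312), as it did 4.79% of the genes. inx-5 entered that fit through the 5 C- libraries alone, and the p is a description. That call was lost in 6 of 14 alternatives, among them without embryo 4 (adjusted p = 0.108) and with the embryo as a block (adjusted p = 0.145). inx-5 was over 25 RPKM in 10 of the 13 libraries with inx-12 over 25. inx-7 was over 25 RPKM in 16 libraries and was tested but not called between D+ and D- (-0.56, SE 1.37, adjusted p = 0.921) and between C-out and C- (-0.04, SE 1.48, adjusted p = 0.991). inx-21, inx-17, eat-5 and inx-19 passed 25 RPKM in 6, 3, 1 and 1 libraries, and the other 9 in none.

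The genes most like inx-3 in log2(RPKM + 25) over the 43 libraries, among 6839 genes compared, were rnp-4 (Pearson's r 0.587), epn-1 (0.574) and dnj-7 (0.526). Those most like inx-2 were Y66H1A.4 (0.559), F39H11.1 (0.551) and rps-25 (0.540). For inx-12, added after its values were seen, the leading genes were sqt-3 (0.923), D1005.2 (0.921) and phy-2 (0.919), with inx-13 at rank 30 (0.787) and inx-5 at rank 141 (0.607). sqt-3 encodes a cuticle collagen and phy-2 a subunit of the enzyme that hydroxylates collagen. The libraries share cell groups and embryos, so these values are descriptions.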

How the data were processed

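Single-embryo dissections were made into cDNA with the SMARTer Ultra Low kit and into libraries with Nextera XT. For each library the authors deposited a whole-number read count, a gene length in bases and an RPKM per gene, on build ce10, with bedtools named in the submitters' processing notes. The aligner, the annotation and the strand setting were not given in the sources used here. Coverage tracks were not used. The ABp dissections were not analysed here. The deposited RPKM values divide by a listed length, which is one shared placeholder of 2500 bases for 1350 genes, none of them a member.

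Groups came from the sample titles. Counts were fitted for each pair of groups with edgeR 4.0.16 (R 4.3.3), TMM scaling and the quasi-likelihood test, on genes that passed 25 RPKM in a number of libraries no lower than the size of the smaller group, with Benjamini-Hochberg adjustment and a threshold of 0.05. SE was the log2 fold change over the root of F. Members under that filter but over 25 RPKM in any library of the pair got an exact two-sided permutation test of log2(RPKM + 25), unadjusted. Alternatives were DESeq2 1.42.0, limma 3.58.1 on log2 RPKM with a pseudocount of 25 or 1, median-ratio or no scaling, no filter, the embryo as block, each embryo left out, the 8 set-aside libraries added, and 1 fit on all 3 C groups. P-values of the main fits and exact tests rest on the spread between libraries within groups, without pairing. Only those with the embryo as block or paired by embryo use differences within embryos.

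Replicate numbers mark the same embryo by the series' design, so they pair the libraries. Deviations from group means correlated at a mean r of 0.0538 (MS), 0.0387 (D) and 0.0347 (C) within an embryo, and at -0.0085, -0.0066 and -0.0086 between embryos. No libraries were identical. The scripts were tested on simulated data first.

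All 10 members are named, other innexins where a group mean passes 25 RPKM or where they neighbour a member or are detected, and the 3 genes most alike for the 2 highest members. inx-12 was added to the latter after its values were seen. The members, gene lists and tests were chosen with earlier results of these data known. Gene positions are from Ensembl release 115 (WBcel235).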

Additional observations from a re-analysis of the deposited data

Results flagged for a closer look

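A library far from the rest of its group was found for 10 of 32 pairs of a detected member and a group. Detection of inx-11, inx-14, inx-15 and inx-22 rested on 3 libraries or fewer, so the selection itself brings in high libraries. The count is therefore not set against a chance rate. In D+ embryo 8, inx-12 was 593.95 RPKM and inx-13 was 209.28 RPKM, in the library that went against its label. In C- embryo 4, inx-14 was 61.96 RPKM and inx-15 was 51.16 RPKM. inx-11 stood apart at 759.14 RPKM in D+ embryo 3 and at 41.6 RPKM in D- embryo 6. inx-13 stood apart at 149.59 RPKM in MS- embryo 2, and inx-22 at 41.9 RPKM in MS+ embryo 1 and 48.7 RPKM in C- embryo 1. inx-2 was low, at 333.24 RPKM, in D- embryo 2.

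In the set-aside D+, C-in and C-out libraries, 6 values over 25 RPKM lay above the highest accepted library of the matching rest of the embryo. inx-2 was 742.89 RPKM in D+ of embryo 5 and 844.13 RPKM in C-in of embryo 3. inx-3 was 804.62 RPKM in C-in of embryo 3 and 1348.94 RPKM in C-out of embryo 7. inx-12 was 204.85 RPKM in C-in of embryo 3, from 29 counts, and inx-13 was 944.47 RPKM in C-out of embryo 7. In the set-aside C- libraries, inx-12 was 270.03 RPKM in embryo 7 and inx-15 was 61.98 RPKM in embryo 3, both above the accepted C- libraries.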

How the results depend on the processing

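Counts of genes called moved more than the innexins did. With no filter on low values 347 genes were called for MS, 282 for D, 289 for C-in over C-out, 121 for C-in over C-, 244 for C-out over C- and 530 for the difference of the MS and D contrasts. One member each was then called in MS (inx-15), D (inx-11) and that difference (inx-11). DESeq2 called 437, 509, 285, 898 and 456 genes in the 5 comparisons, with 2 members in D and 2 in C-out over C-. limma with a pseudocount of 25 called 113 (MS), 22 (D), 429 (C-in over C-) and 28 (C-out over C-), and with 1 it called 229, 65, 467 and 2. Median-ratio scaling called 4 in MS. The fit on all 3 C groups called 615 genes and 2 members for C-in over C-out, and the set-aside embryos gave 33 (D), 32 (C-in over C-) and 152 (C-out over C-). With the embryo as replicate block, pairing the libraries, 2 (D), 26 (C-in over C-) and 30 (C-out over C-) genes were called. The block changed no call of a member in the fits across genes. It called 11 genes for MS and 121 for C-in over C-out, against 13 and 125 without the block.

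Leaving out 1 embryo gave 0 to 41 calls for MS, 0 to 103 for D (103 without embryo 8), 74 to 190 for C-in over C-out, 1 to 346 for C-in over C- (1 without embryo 4), 0 to 208 for C-out over C- (208 without embryo 1) and 26 to 81 for the difference of contrasts. Members called were 1 to 2 for C-in over C-out and 0 to 1 for C-in over C-, and 0 elsewhere.

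Signs turned for values that were not called. For MS, limma with a pseudocount of 25 and 1 gave -0.013 and -0.034 for inx-2 and -0.0090 and -0.014 for inx-3. For C-in over C-out, inx-3 was 0.16 with no filter and 0.12 in the fit on all 3 groups. For C-in over C-, inx-3 was -0.46 with no scaling, -0.88 and -1.02 under limma and -0.19 with the block. For C-out over C-, inx-3 was -0.10 with no scaling, -0.34 and -0.37 under limma and -0.033 with the block, and inx-5 was -0.36 and -0.61 under limma and -0.28 with the block. inx-15 was 0.046 there with a pseudocount of 1. Over leaving out each embryo, inx-2 ran from -0.74 to 0.31 and inx-3 from -0.83 to 0.36 for C-in over C-out, and inx-3 from -0.12 to 0.57 for C-in over C- and from -0.24 to 0.82 for C-out over C-. On log2(RPKM + 25), inx-22 in MS ran from -0.40 to 0.11. In D, inx-11 ran from -0.16 (without embryo 3) to 0.90, inx-12 from -1.28 (without embryo 8) to 0.085 and inx-13 from -0.63 (without embryo 8) to 0.20. For C-out over C-, inx-14 ran from -0.44 to 0.048 and inx-15 from -0.34 to 0.15, the upper value of each without embryo 4. The causes of these moves were not tested. Of the other values of single genes, 314 kept their sign and their side of the threshold, 26 fell below it and 5 passed it.

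Depth limits the low members. A library of the smallest total needs 5.42 RPKM of inx-15 for 3 counts, so that values of inx-8, inx-10, inx-14, inx-15 and inx-22 of a few RPKM rest on a few reads, and PCR copies are not independent molecules. With 5 embryos a paired exact test cannot go below 0.0625.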
